A study of Mus musculus with 18 samples.

Results

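The comparison described here set p53ER cells given 4-hydroxytamoxifen (4-OHT) for 4 h against p53ER cells given vehicle for 4 h. It rests on 6 of the 18 arrays of the series, 3 with 4-OHT and 3 with vehicle, chosen by their titles and paired by the replicate number in those titles. All arrays held total RNA of a mouse line labelled TKO, described in the labels as telomere dysfunctional and grown in DMEM with serum. Cells labelled as expressing p53ER were sampled with 100 nM 4-OHT, with vehicle and at 0 h, and uninfected cells of the same line were sampled in the same 3 ways, with 3 arrays in each of the 6 groups. No group of cells infected with an empty vector is named, so p53ER and infection itself cannot be told apart. Nothing in the labels says that replicates came from separate cultures, and p-values therefore measure only the array-to-array spread, which may be technical.

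The tumour suppressor p53 is a transcription factor that binds a repeated decamer in DNA and raises genes that stop the cell cycle, start cell death or feed back on p53 itself. Mdm2, the ubiquitin ligase that marks p53 for degradation, is the best known of the feedback genes. In p53ER the protein is fused to the hormone-binding part of an estrogen receptor, which keeps it idle until 4-OHT binds. Adding the drug can thus start the p53 response without a DNA-damaging agent. The series title concerns ZNF365, a zinc finger gene called Zfp365 in the mouse, with fragile sites and telomeres.

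The data show a short list of strongly raised genes. Relative to vehicle, 8 genes rose with 4-OHT and 0 fell at a limma adjusted p under 0.05, among 10916 genes tested (0.0733% of them). They were Mdm2, Cdkn1a, Phlda3 and Pmaip1, which are textbook p53 targets, and Nlrc5, Ddit4l, Btbd11 and Zfp365, which were in none of the p53 lists used here. Their log2 changes ran from +1.17 for Btbd11 to +3.38 for Pmaip1. At an unadjusted p under 0.05 there were 535 genes (4.9%), 282 higher (2.58%) and 253 lower (2.32%).

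Windows of 100 bases from 5 promoters are shown, those of raised genes and of Ccng1, which passed on a single probe set only. They are shown because p53 acts through its decamer and because they let the reader compare a study gene, Zfp365, with textbook targets. The sequences are from RefSeq (GRCm38.p6), and each is read on the strand of its gene. In the windows of Ccng1 (chr11:40755422-40755521, minus strand), Cdkn1a (chr17:29090879-29090978, plus strand) and Zfp365 (chr10:67912666-67912765, minus strand) the capitals mark paired decamers. In those of Ddit4l (chr3:137623542-137623641, plus strand) and Mdm2 (chr10:117710885-117710984, minus strand) they mark a single decamer that follows the consensus without a mismatch.
Ccng1: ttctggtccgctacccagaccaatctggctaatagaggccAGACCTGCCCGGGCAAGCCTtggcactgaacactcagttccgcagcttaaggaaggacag
Cdkn1a: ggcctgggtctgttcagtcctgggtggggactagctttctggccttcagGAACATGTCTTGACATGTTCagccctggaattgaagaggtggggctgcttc
Zfp365: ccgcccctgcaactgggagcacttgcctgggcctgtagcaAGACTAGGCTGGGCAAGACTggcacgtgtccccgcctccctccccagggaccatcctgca
Ddit4l: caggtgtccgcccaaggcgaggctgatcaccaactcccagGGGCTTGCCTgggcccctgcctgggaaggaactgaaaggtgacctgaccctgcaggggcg
Mdm2: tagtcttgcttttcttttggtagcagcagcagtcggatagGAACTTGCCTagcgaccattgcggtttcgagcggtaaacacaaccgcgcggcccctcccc

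The search covered 250 bases before to 50 after each start site, for the 8 raised genes and for Ccng1, which had a raised probe set. The motif was the p53 consensus decamer, which reads the same on both strands. A paired match was 2 decamers at most 1 base apart with at most 2 mismatches in all, and with the fixed C and G of the core kept in each decamer. Of the 9 genes, 7 had a window (not Nlrc5 or Pmaip1), 3 held a paired match and 4 held an exact single decamer. The paired match of Ccng1 lay at -195 to -176 relative to the start site and had 1 mismatch, and that of Zfp365 lay at -63 to -44 and had 2. Cdkn1a had 2 annotated start sites 2790 bases apart, and its paired match, with 1 mismatch, lay at -51 to -32 from one of them. Among the 8874 tested genes with a window, 0.958% held a paired match and 8.32% an exact decamer. Over all 32851 windows the shares were 0.682% and 8.36%. A match describes letters in a window and is not a bound site, and windows of Phlda3 and Btbd11 held neither form.

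Signals are given throughout as log2 of the scaled MAS5 signal plus an offset, a scale on which the dimmest gene tested averaged 4.74. Values of different genes are not set against each other, since probe sets differ in brightness. The 2% trimmed mean ran from 47.5 to 148 between arrays before scaling. The fusion was read through Esr1, the estrogen receptor gene, whose brightest probe set averaged 8.05 ± 1.17 in p53ER cells with 4-OHT, 8.42 ± 1.82 with vehicle and 8.23 ± 1.19 at 0 h, against 3.68 ± 0.61, 4.08 ± 0.97 and 4.44 ± 0.31 in uninfected cells with 4-OHT, with vehicle and at 0 h (SD, n = 3 each). Among all arrays, p53ER vehicle replicate 1 stood apart on the first principal component together with uninfected 0 h replicate 2 and p53ER 0 h replicate 3 (scores 53.3, 56.5 and 27.3, on a component with 23.9% of the variance). Values from pairs 2 and 3, which do not use that vehicle array, are therefore given beside the results. On the second component (21.8% of the variance) the replicate 3 arrays of all 6 groups scored -32.8 to -22.1. Every array of replicates 1 and 2 scored +7.14 to +21.2 there. What sets replicate 3 apart was not tested.

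Of the genes that feed back on p53, Mdm2 had the lowest adjusted p of the genes tested. It stood at 10.21, 10.09 and 11.26 in replicates 1, 2 and 3 with 4-OHT, against 6.77, 7.30 and 8.73 with vehicle. The 4-OHT and vehicle values did not overlap, and replicate 3 was the highest of both groups. The change was +2.92 (SE 0.27, limma adjusted p = 0.000251), and the mean of pairs 2 and 3 was +2.66. A second probe set gave +2.95 (SE 0.28; limma over the tested probe sets, adjusted p = 0.000142), with pair differences of +3.33, +2.74 and +2.78. The last of its probe sets averaged 3.98 over all arrays, below the dimmest gene tested, and differed by -0.02 (SE 0.54).

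Ccng1 encodes cyclin G1, a p53 target that takes part in the control of Mdm2. Its brightest probe set stood at 9.45, 9.63 and 10.88 with 4-OHT, against 6.22, 8.11 and 9.29 with vehicle. The groups did not overlap, but vehicle replicate 1 differed by -2.48 from the mean of the other vehicle arrays, and the change of +2.11 (SE 0.57) did not pass (limma adjusted p = 0.669). A dimmer probe set of the gene stood at 9.24, 9.17 and 9.93 with 4-OHT, against 7.09, 7.47 and 8.46 with vehicle. That one passed at +1.77 (SE 0.26; limma over the tested probe sets, adjusted p = 0.0166). The remaining probe set differed by +1.91 (SE 0.41), and pairs 2 and 3 gave +1.47 to +1.70 on all 3 probe sets. The other 4 tested feedback genes differed by -0.19 (Mdm4, a partner of Mdm2) to +0.31 (Ppm1d, a phosphatase that acts on p53) and did not pass.

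Among growth arrest targets, Cdkn1a, which encodes the cyclin-dependent kinase inhibitor p21, rose by 2.19 (SE 0.29, limma adjusted p = 0.00817). It stood at 9.77, 10.17 and 11.23 with 4-OHT, against 7.34, 7.89 and 9.37 with vehicle. The lowest array with 4-OHT was above the highest with vehicle, by a small margin that came from vehicle replicate 3, and pairs 2 and 3 averaged +2.07. A dimmer Cdkn1a probe set stood at 7.53, 8.01 and 8.68 with 4-OHT, against 5.34, 5.09 and 7.13 with vehicle. Its change was +2.22 (SE 0.36; limma over the tested probe sets, adjusted p = 0.0305). Both probe sets thus gave nearly the same size of change at different brightness.

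Cell death targets gave 2 of the raised genes. Phlda3, whose product competes with the kinase Akt for membrane lipids, had the most even change, with pair differences of +1.46, +1.45 and +1.40. It stood at 10.41, 10.51 and 10.96 with 4-OHT, against 8.95, 9.06 and 9.55 with vehicle, with no overlap. The change was +1.44 (SE 0.19, limma adjusted p = 0.00817), a 2.70-fold difference. Pmaip1, the gene of the BH3-only death protein Noxa, rose by 3.38 on the log2 scale (SE 0.53, limma adjusted p = 0.0248). It stood at 7.14, 7.64 and 8.71 with 4-OHT, against 3.50, 4.69 and 5.14 with vehicle. The groups did not overlap, and 2 of the 3 vehicle values lay below the dimmest mean tested, and its change was +3.72 without an offset, where it did not pass (limma adjusted p = 0.141), and +2.78 with the larger one, where that of Mdm2 was +2.83. Pairs 2 and 3 averaged +3.26. Phlda3 and Pmaip1 were each read by 1 measurable probe set.

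The raised genes outside the p53 lists had other roles. Nlrc5 encodes a coactivator of the MHC class I genes and rose by 2.09 (SE 0.32, limma adjusted p = 0.0206). It stood at 6.67, 6.25 and 7.90 with 4-OHT, against 5.24, 4.75 and 4.56 with vehicle. The groups did not overlap, and pair 3 (+3.34) was larger than pairs 1 and 2 (+1.43 and +1.501). With no offset its change was +2.27 and with a larger offset +1.72. Tap1, a peptide transporter of the same antigen presentation pathway, is itself in the p53 lists. It differed by +0.80 (SE 0.30; pairs +0.475, +0.42 and +1.49) without overlap and did not pass. The pathway as a whole was not tested.

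Ddit4l, a relative of the mTORC1 inhibitor Ddit4, rose by 2.21 (SE 0.37, limma adjusted p = 0.0379). It stood at 6.94, 7.07 and 9.58 with 4-OHT, against 4.94, 5.80 and 6.22 with vehicle. The groups did not overlap, and pair 3 was again the largest, at +3.35 against +2.001 and +1.27. Its other probe sets differed by +2.003 (SE 0.35) and +2.05 (SE 0.50), and each of the 3 was higher in all 3 pairs. Ddit4 itself differed by +0.93 (SE 0.23), with pair differences of +1.01, +1.14 and +0.65, and did not pass (limma adjusted p = 0.452).

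Btbd11 encodes a protein with ankyrin repeats and a BTB domain and had the smallest change among the raised genes, +1.17 (SE 0.19, limma adjusted p = 0.0347). It stood at 7.53, 7.61 and 9.09 with 4-OHT, against 6.64, 6.15 and 7.94 with vehicle. Here the groups overlapped, because vehicle replicate 3 lay above 4-OHT replicates 1 and 2, and the call comes from the pairs, which differed by +0.88, +1.46 and +1.15. Its other probe sets gave +1.04 (SE 0.22) and +0.83 (SE 0.23), with the same sign in every pair.

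Zfp365 rose by 1.995 on its brighter probe set (SE 0.34, limma adjusted p = 0.0379). That probe set stood at 6.36, 6.11 and 6.87 with 4-OHT, against 4.54, 3.36 and 5.46 with vehicle. The groups did not overlap, and pairs 2 and 3 averaged +2.08. Vehicle replicates 1 and 2 lay below the dimmest mean tested, and the change was +2.31 without an offset, where it did not pass (limma adjusted p = 0.105), and +1.49 with the larger one. The dimmer probe set averaged 4.25 over all arrays, below the dimmest gene tested, and differed by +2.10 (SE 0.56) with pair differences of +1.68, +1.20 and +3.43. The largest pair difference was therefore in replicate 2 on one probe set and in replicate 3 on the other. In the fit over probe sets the brighter one had a limma adjusted p of 0.0515 and did not pass, and the dimmer one was not bright enough to be counted as measurable.

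**Figure D1:**
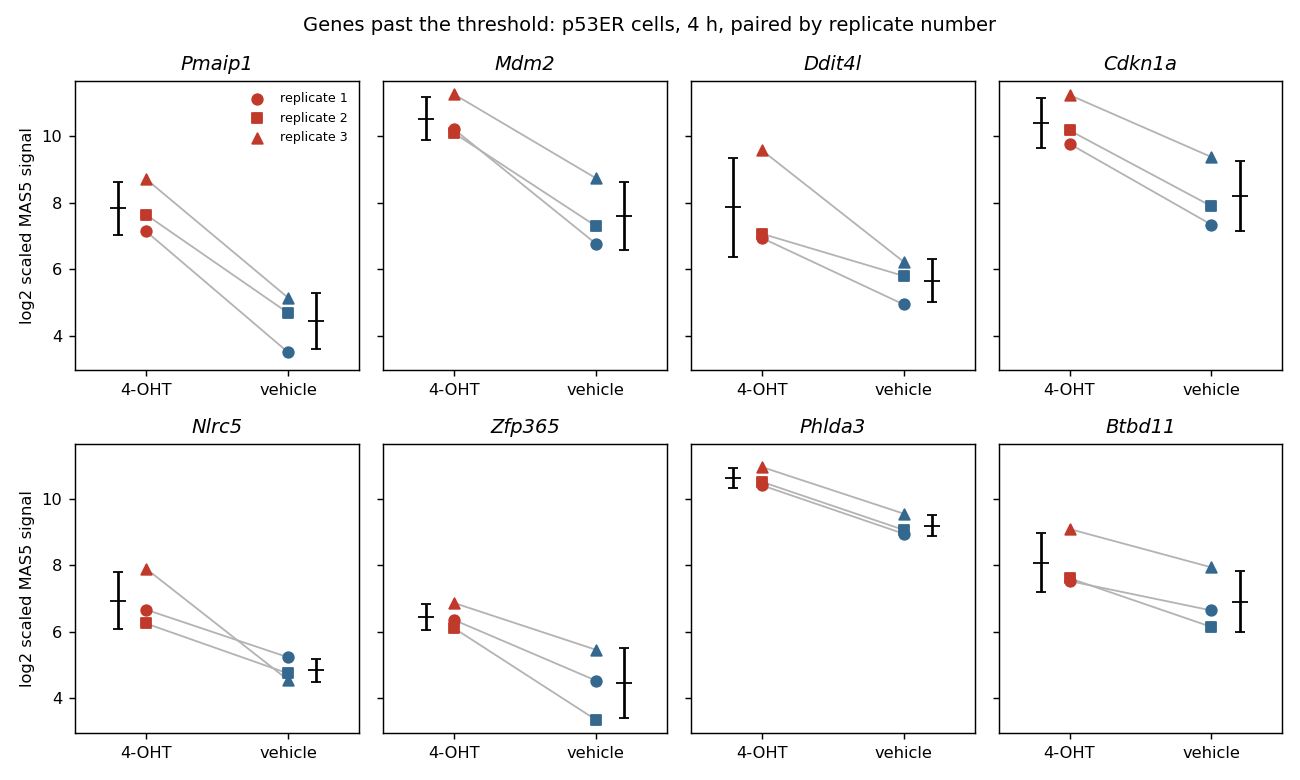
The log2 scaled MAS5 signal (vertical axis) of the 8 genes past the threshold in p53ER cells with 4-OHT (red) and with vehicle (blue), with grey lines joining arrays of the same replicate number and black bars giving the mean ± SD of 3 arrays. All 24 lines fall toward vehicle, and only Btbd11 has overlapping groups.

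The calls depended on the pairing and on single arrays. Without the replicate number in the model 2 genes passed (0.0183%), Mdm2 and Pmaip1 (limma adjusted p = 0.0329 and 0.0352), and without 4-OHT replicate 3 only Mdm2 did (limma adjusted p = 0.00474). Without vehicle replicate 1, the array that stood apart, 6 genes passed, among them Mdm2, Cdkn1a, Phlda3 and Nlrc5.

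Over all 27061 probe sets tested, 12 passed (0.0443%), 11 higher (0.0406%) and 1 lower (0.0037%), and 1288 had an unadjusted p under 0.05 (4.76%). Beside those already described, these included 2 probe sets with no listed gene. Probe set 1456319_at stood at 7.96, 7.62 and 6.44 with 4-OHT, against 6.33, 6.15 and 5.11 with vehicle, and rose by 1.48 (SE 0.22, limma adjusted p = 0.0194). Probe set 1425467_a_at was the one lower, at 4.88, 4.34 and 5.23 with 4-OHT, against 5.97, 6.58 and 6.82 with vehicle. It fell by 1.64 on the log2 scale (SE 0.25, limma adjusted p = 0.0194). In neither did the groups overlap, and in uninfected cells they differed by +0.27 and +0.19. Without the replicate number in the model 4 probe sets passed (0.0148%), 2 of Mdm2, 1 of Pmaip1 and 1 of Ccng1.

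**Figure D2:**
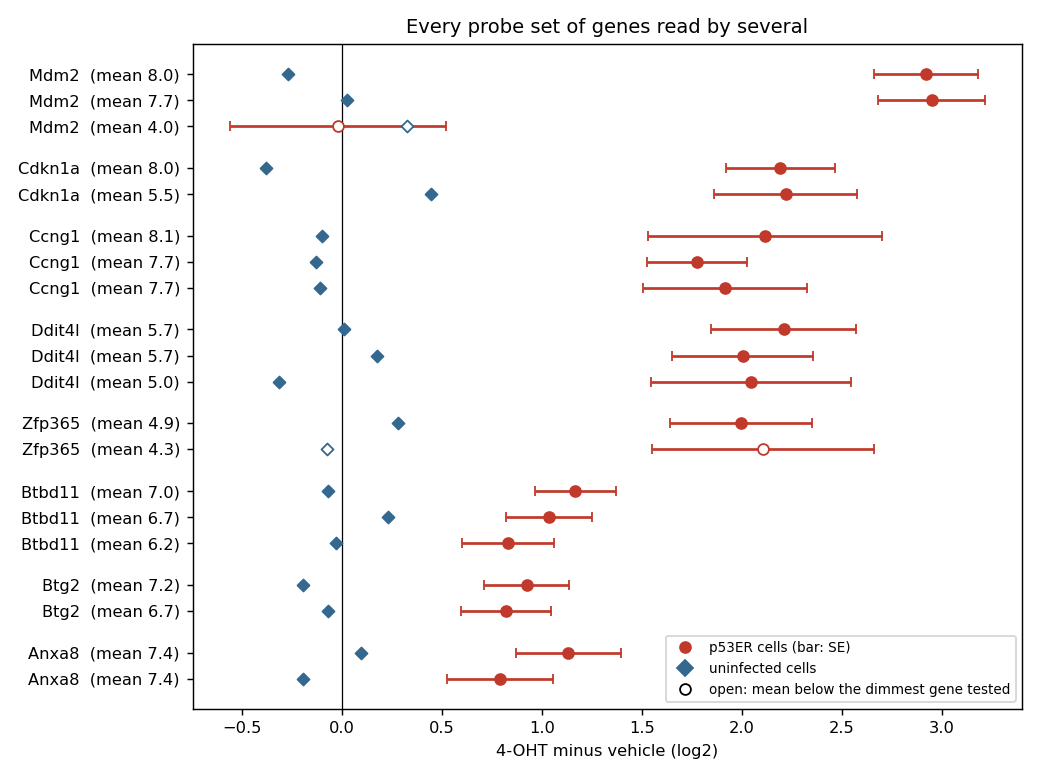
The 4-OHT minus vehicle difference (log2, horizontal axis) on every probe set of 8 genes read by more than 1, in p53ER cells (red circles with SE) and uninfected cells (blue diamonds), with open marks for probe sets whose mean over all arrays, given in brackets, was below the dimmest gene tested. In p53ER cells all filled marks lie above 0.7, and the one mark near 0 is the dimmest Mdm2 probe set.

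Agreement over the 3 pairs was then counted across the array, as a description. The difference had the same sign in all 3 pairs for 1329 genes higher (12.2%) and 1756 lower (16.1%) in p53ER cells, against 1318 higher and 1485 lower for the same contrast in uninfected cells. Larger differences were more one-sided. At over 0.5 in every pair, 75 genes were higher and 26 lower in p53ER cells, against 19 and 16 in uninfected cells, and at over 1 there were 13 and 2, against 4 and 2. From pairs 2 and 3 alone, 34 genes were higher and 11 lower by over 1 in p53ER cells, against 16 and 11 in uninfected cells. The pair differences were also more spread in p53ER cells. Their scaled median absolute deviation over genes was 0.454, 0.297 and 0.322 in pairs 1, 2 and 3, against 0.248, 0.236 and 0.227 in uninfected cells. A fixed cut-off does not allow for that spread, so these counts are not a measure of response. Whether the 2 cell types differ in these counts was not tested.

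**Figure D3:**
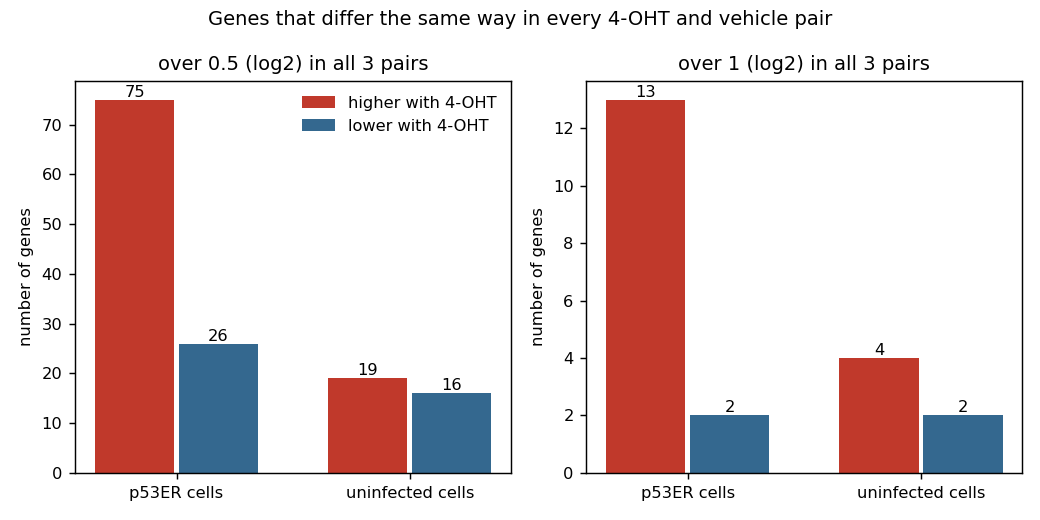
Number of genes (vertical axis) that were higher (red) or lower (blue) with 4-OHT by over 0.5 (left) or over 1 (right) on the log2 scale in each of the 3 pairs, in p53ER cells and in uninfected cells. The excess of higher over lower genes is 75 to 26 and 13 to 2 in p53ER cells, and 19 to 16 and 4 to 2 in uninfected cells.

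The 13 genes higher by over 1 in every pair were 7 of the raised genes and 6 that did not pass. Of those 6, Ccng1, Trp53inp1 and Pidd1 were in the p53 lists. Trp53inp1, a stress-induced p53 partner that promotes cell death and autophagy, stood at 7.29, 7.33 and 8.46 with 4-OHT, against 3.12, 5.02 and 7.14 with vehicle. Its groups did not overlap, but vehicle values spread over 4 log2 units, and the change was +2.60 (SE 0.56, limma adjusted p = 0.224). Pidd1, a scaffold that activates caspase-2, stood at 6.475, 6.0 and 6.567 with 4-OHT, against 5.30, 4.49 and 5.35 with vehicle. Its change of +1.30 (SE 0.29) was even over pairs (smallest +1.18, largest +1.51) and did not pass (limma adjusted p = 0.263).

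The other 3 of the 6 were outside the p53 lists. Arhgef4, a guanine nucleotide exchange factor, came closest to the threshold at +2.29 (SE 0.42, limma adjusted p = 0.0717). It stood at 7.05, 7.08 and 8.36 with 4-OHT, against 5.67, 4.87 and 5.08 with vehicle, with no overlap, and it passed with a larger offset (limma adjusted p = 0.0337). Cebpa, a transcription factor of fat and myeloid cells, differed by +1.57 (SE 0.42; pairs +1.18, +1.39 and +2.14). Ccdc13, a coiled-coil protein gene, differed by +1.59 (SE 0.56; pairs +1.89, +1.35 and +1.53), with all its vehicle values below the dimmest mean tested, so that this size depends on the offset. Its mean was 5.45 with 4-OHT and 3.86 with vehicle, against 4.89 in p53ER cells at 0 h. In uninfected cells it was 5.08 with 4-OHT, 5.33 with vehicle and 5.67 at 0 h. The p53ER vehicle mean was thus the lowest of the 6 groups, and the 4-OHT mean lay within the range of the uninfected groups. In all 3 genes the arrays with 4-OHT lay above those with vehicle, a pattern found for 370 of all genes tested (3.39%).

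On the lower side, 2 genes differed by over 1 in every pair, and neither passed. Cdh3, which encodes P-cadherin, had pair differences of -1.31, -1.07 and -2.08. It stood at 4.45, 4.999 and 3.70 with 4-OHT, against 5.76, 6.07 and 5.78 with vehicle, without overlap (435 genes were lower in that way, 3.98%). The change was -1.49 (SE 0.29, limma adjusted p = 0.124). Its mean with 4-OHT (4.38) lay below the dimmest mean tested, so that size depends on the offset. Rhof, a small GTPase of filopodia, differed by -1.60 (SE 0.45), at 3.32, 4.14 and 3.87 with 4-OHT, against 5.33, 5.49 and 5.33 with vehicle. Its values with 4-OHT all lay below the dimmest mean tested, so that size too depends on the offset. The pseudogene Fut4-ps1 (-1.43), the transmembrane gene Mmgt2 (-1.22), the scaffold gene Grip2 (-1.63), Agfg2 (-1.09), the synaptic scaffold gene Mpp2 (-0.93) and the liprin gene Ppfia4 (-0.85) were also lower in every pair, and none of these passed.

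**Figure D4:**
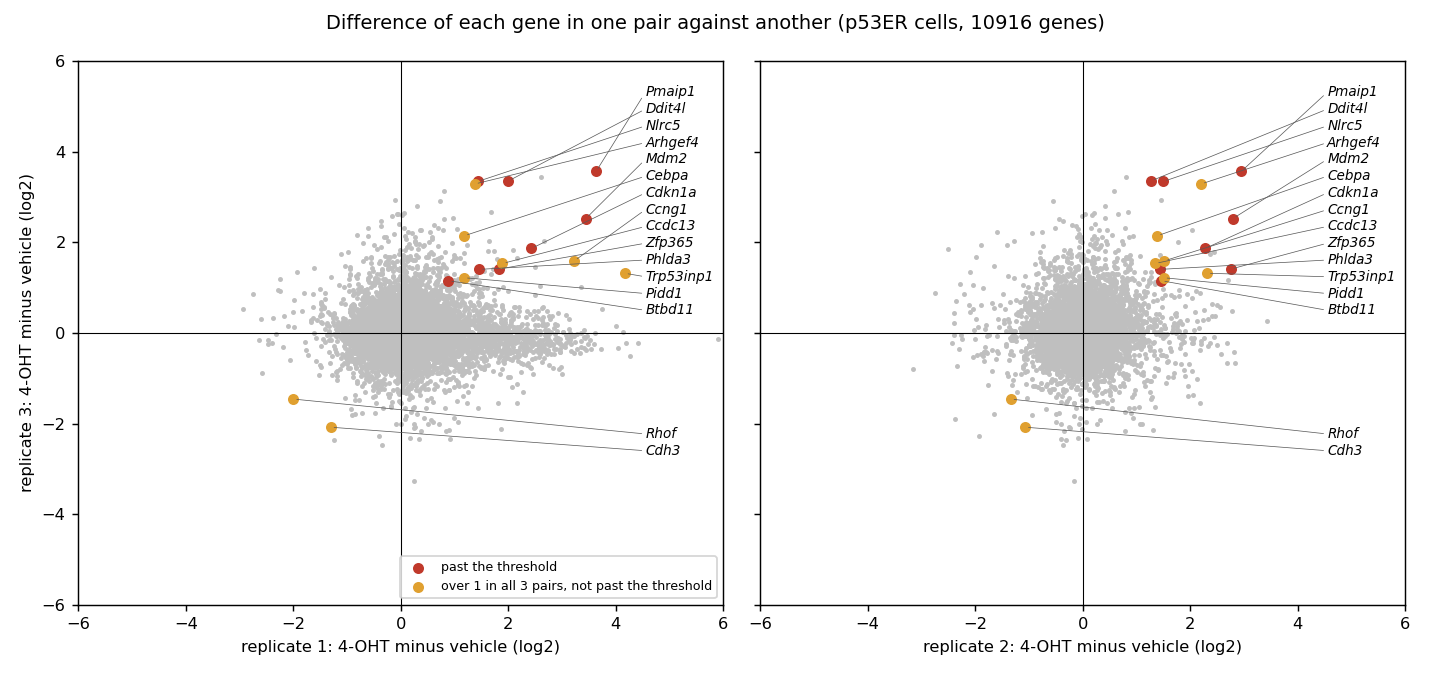
The 4-OHT minus vehicle difference of each of 10916 genes (log2) in replicate 3 (vertical axis) against replicate 1 (left) and replicate 2 (right), with genes past the threshold in red and further genes over 1 in all 3 pairs in orange. The cloud is widest along replicate 1, where 1188 genes lie beyond 1, and the named genes stand in the upper right or lower left corner of both panels.

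Across genes, the differences of the 3 pairs were nearly unrelated. The correlation over 10916 genes was 0.075 between pairs 1 and 2, 0.075 between pairs 2 and 3 and -0.006 between pairs 1 and 3, and genes are not independent replicates. Pair 1 was the most spread, with 1188 genes beyond 1 in either direction, against 429 in pair 2 and 514 in pair 3. Its differences also followed the 2 other arrays that stood apart: over genes, the correlation of the pair 1 difference with the mean departure of those 2 arrays was -0.608, against -0.033 for pair 2 and 0.074 for pair 3. What part those arrays have in single genes was not tested.

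Agreement between probe sets was a second description. Of the genes tested, 4676 had at least 2 probe sets as bright as the dimmest gene tested. On the brightest probe set 529 of them were higher in all 3 pairs and 785 lower, and on every such probe set 104 were higher (19.7% of the 529) and 108 lower (13.8% of the 785). Among the 1861 genes with at least 3, 16 were higher in all pairs on every probe set and 12 were lower. Ddit4l, Ccng1 and Btbd11 led the 16 by size of change. Some of the 16 had most of their size in pair 1, which uses the vehicle array that stood apart, while Ddit4l and Btbd11 did not. Examples are Marchf7 (+2.50, against +0.69 and +0.06 in pairs 2 and 3) and Flrt2 (+2.56, against +0.02 and +0.17). The largest of the 12 lower were Pcbp4, an RNA-binding protein gene known as a p53 target in human cells, at -0.50 (SE 0.16), and Tpbg, the trophoblast glycoprotein gene, at -0.49 (SE 0.17). Neither passed, and pairs 2 and 3 averaged -0.30 for Pcbp4 and -0.39 for Tpbg.

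Of the genes that passed, Mdm2 and Cdkn1a were also higher in all pairs on each measurable probe set. The ranking that follows drew only on genes that had not passed. Outside those just named, its genes with the largest differences held on every pair and probe set were of mixed function. Btg2, an antiproliferative gene among the p53 targets, stood at 7.53, 8.37 and 8.83 with 4-OHT, against 6.64, 7.25 and 8.06 with vehicle, and its probe sets differed by +0.92 (SE 0.21) and +0.82 (SE 0.23). Anxa8, an annexin gene, stood at 7.79, 7.997 and 9.13 with 4-OHT, against 6.81, 6.76 and 7.96 with vehicle, and its probe sets differed by +1.13 (SE 0.28) and +0.79 (SE 0.26). In both, vehicle replicate 3 reached above 4-OHT replicate 1, so the groups overlapped while each pair did not. Pltp, a phospholipid transfer protein gene, differed by +0.91 and +1.54 on its probe sets, and Cd109, which encodes a surface protein that binds TGF-beta, by +0.90 and +0.97.

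Further down the same ranking, Has2, which makes hyaluronan, differed by +0.84, Mapkapk3, a kinase downstream of p38, by +0.67, B3galnt2, a glycosyltransferase gene, by +0.67 and Csnk1g1, a casein kinase gene, by +0.59. Ddias, a suppressor of cell death after DNA damage, differed by +1.32, mostly from pair 1 (+2.58, against +0.35 and +1.05).

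Among genes read by 1 measurable probe set, the rule also gave Klhdc1 (+1.39, SE 0.42), the NAD-cleaving enzyme gene Sarm1 (+1.35, SE 0.34) and the actin-associated gene Afap1l2 (+1.14, SE 0.34). Sarm1 stood at 5.48, 5.30 and 5.49 with 4-OHT, against 3.49, 4.16 and 4.56 with vehicle, and in uninfected cells it differed by -0.84. Its vehicle values all lay below the dimmest mean tested, so the size of its difference depends on the offset. All 3 were higher in every pair of p53ER cells, and the rule drew only on genes that had not passed.

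On the lower side the rule for several probe sets gave small differences. Pkp4, which encodes plakophilin 4, was the most even, at -0.53, -0.66 and -0.63 in the 3 pairs. It stood at 7.17, 7.47 and 7.31 with 4-OHT, against 7.70, 8.13 and 7.93 with vehicle, with no overlap. Its probe sets differed by -0.60 (SE 0.16) and -0.39 (SE 0.16). The others were Vps8 of endosome tethering (-0.63), the sororin gene Cdca5 (-0.47), Timm50 of mitochondrial protein import (-0.46), Tmem106c (-0.39), the glycogenin gene Gyg (-0.38), the corepressor gene Trim28 (-0.36), Cdt1 of replication licensing (-0.33), the potassium channel gene Kcnn4 (-0.32) and Cyp51 of cholesterol synthesis (-0.31).

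The p53 targets were divided by role into 6 lists of 82 genes, 76 of them represented by probe sets and 69 tested. Together 4 of the 69 passed, all higher (0.0733% of all genes), and 35 were higher and 6 lower in all 3 pairs (12.2% and 16.1% of all genes). The mean change was positive for 56 of the 69 (48.1% of all genes). In 15 of the 69 the 4-OHT values lay wholly above the vehicle values, and in 2 wholly below (3.39% and 3.98% of all genes). The median log2 change was +0.31, or +0.39 from pairs 2 and 3, against -0.01 over all genes tested. In uninfected cells the median of the same genes was -0.05. These lists are of textbook targets and were chosen with results of these arrays known.

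Differences between the roles were not tested. The median of the cell death targets was +0.81 (+0.65 from pairs 2 and 3), and all 14 tested were positive, 10 of them in every pair. Beside Pmaip1, Trp53inp1, Phlda3 and Pidd1 the list held Perp, a membrane protein of cell death (+1.00, SE 0.40), Tnfaip8 (+0.84, SE 0.25) and the Bcl2-binding protein gene Ei24 (+0.78, SE 0.20). In each of these 3 the groups did not overlap, and none passed. Bbc3, which encodes Puma, and Bak1 differed by only +0.06 (SE 0.35) and +0.05 (SE 0.17).

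Of the 9 growth arrest targets 8 were positive, and their median was +0.59 (+0.49 from pairs 2 and 3). Beside Cdkn1a and Btg2 these included Gtse1 (+0.81, SE 0.30), with most of its size in pair 3 (+2.08, against +0.09 and +0.27), and Zmat3 (+0.71, SE 0.29), an RNA-binding protein gene. Gadd45a, a damage-induced growth arrest gene, had small and even differences (+0.23, +0.27 and +0.19). Plk2, a kinase gene, was the one negative member, at -0.21 (SE 0.10).

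Of the 20 metabolism and autophagy targets 16 were positive, with a median of +0.24 (+0.33 from pairs 2 and 3), 7 higher and 3 lower in every pair and 0 past the threshold. The largest were Dcxr, a sugar reductase gene (+1.00, SE 0.36), Ddit4 (+0.93), Aldh4a1 of proline breakdown (+0.91, SE 0.37) and Sesn2, a sestrin gene (+0.71, SE 0.33). Tigar, a brake on glycolysis, and Sco2 of cytochrome oxidase assembly were negative (-0.18, SE 0.17, and -0.31, SE 0.21).

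The median over the 12 membrane and secreted targets was +0.29, and 10 were positive. Icam1, an adhesion molecule gene, stood at 6.81, 6.12 and 5.50 with 4-OHT, against 5.70, 5.26 and 3.86 with vehicle. All its pairs were higher (+1.10, +0.86 and +1.65), although the groups overlapped, and it did not pass (+1.20, SE 0.40). Jag2, a Notch ligand gene, differed by +1.08 (SE 0.42), mostly from pair 3 (+2.64). Igfbp3, an IGF-binding protein gene, was lower in every pair (-0.63, SE 0.25).

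DNA repair targets did not share this direction. Of 8 tested 4 were positive, and the median was +0.05 (-0.001 from pairs 2 and 3). Polk, a lesion-bypass polymerase gene, differed by +0.92 (SE 0.35) and Ercc5 of nucleotide excision repair by +0.89 (SE 0.34), the second with opposite signs between pairs (+1.18, -0.27 and +1.76). Xpc, which senses damage, stood at -0.46 (SE 0.39), and the sliding clamp gene Pcna was lower in every pair by -0.40, -0.13 and -0.11.

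**Figure D5:**
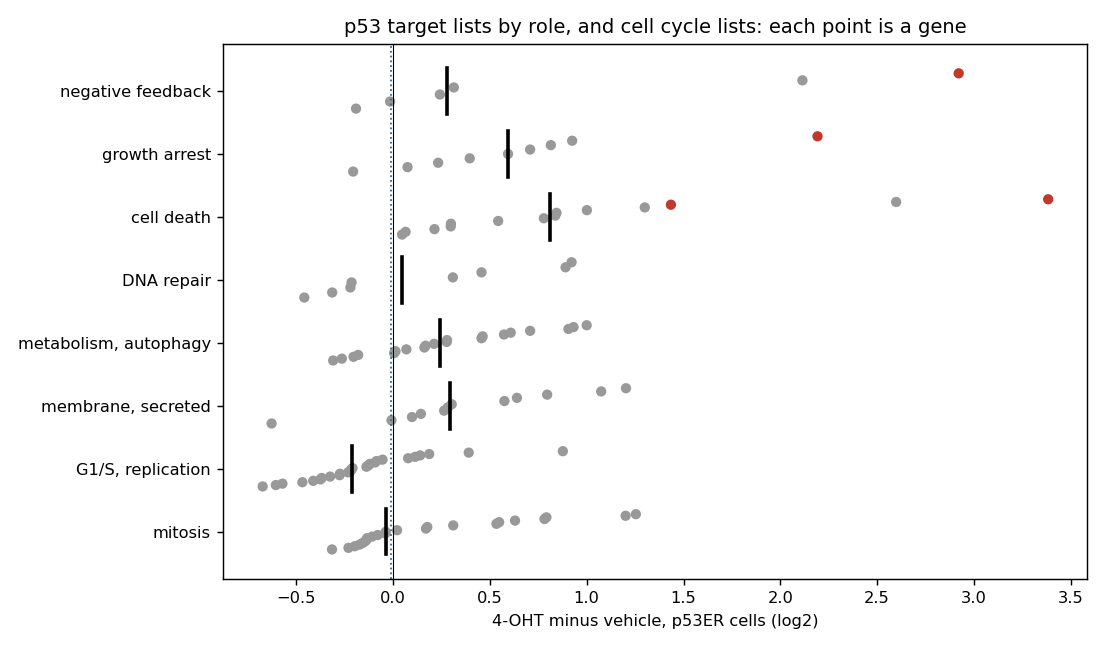
The 4-OHT minus vehicle change in p53ER cells (log2, horizontal axis) of each tested gene in the 6 p53 target lists and 2 cell cycle lists, with black bars at the list medians, a dotted line at the median of all genes tested and genes past the threshold in red. Medians run from +0.81 for cell death targets to -0.21 for replication genes.

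Genes that act at G1/S and in DNA replication were mostly lower by small amounts, and 0 of 26 passed. Of these 9 were lower and 1 higher in every pair (16.1% and 12.2% of all genes), with a median of -0.21 that shrank to -0.05 in pairs 2 and 3. In 4 genes the 4-OHT values lay wholly below the vehicle values (3.98% of all genes): the licensing factors Cdc6 and Cdt1, the helicase subunit Mcm2 and the helicase cofactor Gins1. Cdc6 stood at 6.45, 6.30 and 5.91 with 4-OHT, against 7.18, 6.72 and 6.78 with vehicle (-0.67, SE 0.26). Mcm2 stood at 8.93, 8.89 and 9.05 with 4-OHT, against 9.66, 9.24 and 9.37 with vehicle (-0.47, SE 0.18). Lying wholly below fixes the sign of every pair, so only the size is informative. In pairs 2 and 3 those 4 differed by -0.23 to -0.87. Ccne1, the cyclin E1 gene, was lower in pairs 1 and 3 (-0.89 and -0.88) and level in pair 2 (+0.05).

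The median over 23 mitotic genes was -0.04, and 11 were positive. Their larger values came from pair 1. The kinetochore motor gene Cenpe differed by +3.08 in pair 1, against +0.13 and +0.39, the checkpoint kinase gene Bub1 by +2.20, against +0.04 and +0.13, and the spindle motor gene Kif11 by +1.63, against +0.35 and +0.37. For Cenpe, vehicle replicate 1 stood at 4.30, against 7.40 and 6.201 in vehicle replicates 2 and 3, and uninfected 0 h replicate 2 and p53ER 0 h replicate 3 differed by -1.25 and -2.83 from the mean of their own group mates.

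Other responses showed no shared direction of size. The medians were +0.08 for 18 immediate early genes, +0.04 for 11 NF-kB targets, +0.02 for 10 YAP/TEAD targets, +0.01 for 10 TGF-beta targets, -0.06 for 5 Wnt targets, +0.11 for 14 circadian clock genes, -0.01 for 14 lysosome and autophagy genes and +0.01 for 7 estrogen response genes, and none of their members passed. Junb, an AP-1 subunit gene, was higher in every pair (+0.46, +0.80 and +1.04), at +0.77 (SE 0.22). Per1, a clock gene, was likewise higher (+0.24, +0.82 and +0.89), without overlap, and Tgif1, a repressor of TGF-beta signalling, differed by +0.47, +0.32 and +0.50. All 3 of the tested Notch targets (Nrarp, Heyl and Hes1) were higher in every pair in p53ER cells, with a median of +0.27, against a median of +0.24 in uninfected cells.

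The labels give no cell type for the line. Of the mesenchymal marker list all 15 genes were tested, and their summed signal was 47410 to 55540 with 4-OHT, against 43540 to 59900 with vehicle. Of the epithelial list 4 of 10 were tested (summed signal 182.5 to 258.4 with 4-OHT, against 153.2 to 260.3 with vehicle), of the blood list 4 of 10 (160.6 to 168.2, against 144.9 to 191.8), of the endothelial list 2 of 6 (69.86 to 107.4, against 58.74 to 76.77) and of the neural and muscle list 7 of 10 (461.3 to 576.7, against 474.6 to 605.9). In each list the ranges overlapped between 4-OHT and vehicle. Sums are compared only within a list, since the lists differ in genes tested and each sum is led by its brightest probe sets. They do not name a cell type. In cultures measured in bulk, fewer responding cells and less RNA per cell cannot be told apart.

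In uninfected cells the same contrast gave 0 genes past the threshold with limma, and 112 at an unadjusted p under 0.05 (1.03%), 65 higher (0.595%) and 47 lower (0.431%). The 8 raised genes differed there by -0.58 (Nlrc5) to +0.28 (Zfp365), with Ddit4l at +0.01, Btbd11 at -0.07 and Phlda3 at -0.18. The 6 genes that differed by over 1 in every uninfected pair, Cep128, Rtbdn, Msrb2 and Kcng2 higher and Gtpbp6 and Zap70 lower, were not among the 15 of p53ER cells.

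The difference between the 4-OHT effects, p53ER minus uninfected, passed for 1 gene of 10916 (0.00916%; 247 at an unadjusted p under 0.05, 2.26%), Mdm2, at +3.19 (SE 0.39, limma adjusted p = 0.00683). Its second probe set gave +2.92 (SE 0.39; limma over the tested probe sets, adjusted p = 0.0170). Cdkn1a (+2.57, SE 0.41), Nlrc5 (+2.67, SE 0.45) and Phlda3 (+1.61, SE 0.27) came next, each at a limma adjusted p of 0.0676. Pmaip1 gave +3.93 (SE 0.75, limma adjusted p = 0.205), Btbd11 +1.24 (SE 0.27, 0.557), Ddit4l +2.20 (SE 0.53, 0.924) and Zfp365 +1.71 (SE 0.48, 1.00), so a difference between the cell types was not shown for these 7. Without the replicate number in the model 0 genes passed (170 at an unadjusted p under 0.05).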

How the data were processed

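The authors deposited MAS5 signal intensity values on a linear scale for 45101 probe sets, with MAS5 named in the submitters' processing notes without a version. Arrays were brought to 1 trimmed mean (2%, 82.7), and log2(signal + 4.13) was taken, the offset being 5% of that mean. Of the probe sets, 34958 listed 1 gene, 932 several and 9211 none, and Entrez IDs tied 34754 of the first kind to RefSeq symbols. For each of 18194 genes the brightest probe set was used, and the 60% with the brightest ones (10916) were tested. Another probe set counted as measurable if its mean reached that of the dimmest gene tested.

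The model was limma with trended and robust variance over all 18 arrays, with 6 group means and a block for the replicate number, which left 10 residual degrees of freedom. Tests were two-sided, with Benjamini-Hochberg adjustment and a threshold of 0.05. The block was used because the comparison was defined as paired. The labels do not say what a replicate number stands for, but departures from the group mean correlated between same-numbered 4-OHT and vehicle arrays, at 0.209, 0.319 and 0.449. SEs of probe sets that did not pass come from a fit over all probe sets. With 3 arrays a group, the number of arrays limits the precision.

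The members and the 22 gene lists (291 genes, 242 tested) were chosen with earlier results of these data known. Genes were named by this rule: Mdm2, Pmaip1, Cdkn1a, Phlda3, Zfp365, Esr1 and Trp53 (not analysed here); every gene past the threshold on either level; the 10 each way with the largest smallest pair difference among genes with the same sign in all pairs on every measurable probe set, and the 8 each way among genes with 1; and up to 3 of each list with the same sign in all pairs. The 10 and the 8 each way were drawn only from genes not past the threshold. Genes beyond the rule were named after their values were seen. They were further members of the p53 and cell cycle lists, Marchf7, Flrt2, Pcbp4, Tpbg, the 6 uninfected genes and those of the closing paragraphs. Alternatives were quantile normalization, no offset, an offset of 20% (16.5), no filter, a stricter filter (upper 40%), no block, only the arrays compared, a plain variance prior, array weights, and leaving out single arrays, 3 arrays that stood apart or replicate 3. The pipeline was tested on simulated data. R 4.3.3, limma 3.58.1, data.table (1.17.8), statmod 1.5.0, Python 3.11.15, pandas 2.3.3 and matplotlib 3.10.9 were used.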

Additional observations from a re-analysis of the deposited data

Results flagged for a closer look

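Mdm2 is listed here because its 4-OHT effect differed between the cell types by a test of the difference itself. The difference, p53ER minus uninfected, was +3.19 (SE 0.39, limma adjusted p = 0.00683). The call was lost without the replicate block (smallest limma adjusted p of any gene 0.329) and with only the 12 arrays of 4 h (0.0720). In p53ER cells it averaged 10.52 ± 0.64 with 4-OHT and 7.60 ± 1.02 with vehicle, and in uninfected cells 7.37 ± 0.28 with 4-OHT and 7.64 ± 0.53 with vehicle (log2 signal, SD, n = 3 each). It was higher with 4-OHT in 3 of 3 p53ER pairs and in 1 of 3 uninfected pairs (+0.03, -0.51 and -0.34). Since no cells infected without the fusion are named, the fusion and infection cannot be told apart.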

How the results depend on the processing

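Of the 8 raised genes, Mdm2 passed under each of its 17 alternatives (change +2.65 to +3.31), Phlda3 under 14 of 17, Cdkn1a under 13 of 17, Pmaip1 and Nlrc5 under 10 of 16, Btbd11 under 7 of 17, and Ddit4l and Zfp365 under 5 of 16, with no change of sign. The number of genes past the threshold was 2 without the replicate block, 4 with only the 6 arrays compared, 4 with the stricter filter (which no longer tested Pmaip1, Nlrc5, Ddit4l and Zfp365), 3 without replicate 3 of every group, and 6 to 12 under 7 further settings. Leaving out 1 array in turn gave 1 to 6 and, without vehicle replicate 3, 7. The lowest counts were 1 without 4-OHT replicate 3 (339 at an unadjusted p under 0.05) and 2 without vehicle replicate 2, 1 of them among the 8. Without the 3 arrays that stood apart 9 passed, 6 of them among the 8. Probe sets past the threshold were 4 without the replicate block, 5 with only the 6 arrays, 7 with a plain variance prior, 5 without replicate 3 of every group and 2 to 10 leaving out 1 array. The difference between cell types passed for 0 genes without the replicate block and for 0 with only the 12 arrays of 4 h (320 at an unadjusted p under 0.05, smallest adjusted p 0.0720), 7 with array weights, 2 without the 3 arrays and 1 to 2 leaving out 1 array. Genes with the same sign in all pairs numbered 4927 with no filter on dim genes (2512 higher and 2415 lower), where more genes were counted. Uninfected cells gave 0 calls under each alternative. The cause of the other shifts was not tested. Signals near background, as for Pmaip1, Zfp365 and Nlrc5 with vehicle, limit the size of those changes.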

Other observations

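A few genes that did not pass did so under other settings, and they were named after their values were seen. Slc36a3, a member of a family of proton-coupled amino acid transporters, stood at 6.12, 5.90 and 6.30 with 4-OHT, against 5.34, 3.86 and 4.03 with vehicle. Its change was +1.70 (SE 0.30, limma adjusted p = 0.0543). Vehicle replicate 1 was its highest vehicle value, 1.39 above the mean of the other vehicle arrays, and without that array the change was +2.13 (limma adjusted p = 0.00435). Ckap2, a microtubule-associated protein gene of dividing cells, stood at 9.39, 9.13 and 10.03 with 4-OHT, against 7.76, 8.39 and 7.99 with vehicle, and differed by +1.47 (SE 0.27, limma adjusted p = 0.0777). It passed with no filter on dim genes (limma adjusted p = 0.0462). Bud13, a pre-mRNA splicing factor gene, differed by +0.91 (SE 0.24, limma adjusted p = 0.574), and by +1.28 without vehicle replicate 1 (limma adjusted p = 0.0241).

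Of the 75 genes higher by over 0.5 in every pair, 11 were in the p53 lists and 64 outside. Of all 10916 genes tested, 69 were in these lists, chosen with results of these arrays known, and 10847 outside. Among the 75, 12 of the 21 with at least 2 measurable probe sets were higher in all pairs on each of them. Over all 4676 genes with at least 2, 104 were. The 21 were picked on their brightest probe set, so that 1 agrees by that choice. Single examples, picked after their values were seen, are Jup, which encodes plakoglobin, at +0.88 (SE 0.23; pairs +0.59, +0.61 and +1.44), Evpl, which encodes envoplakin, at +1.73 (SE 0.65; pairs +1.68, +0.84 and +2.66), and the polarity gene Pard6g at +0.83 (SE 0.18; pairs +0.54, +0.73 and +1.24). None of these 3 passed, and genes of cell contacts were also among the lower ones (Cdh3 at -1.49 and Pkp4 at -0.60). Among the 26 lower by over 0.5 in every pair, 0 were in the p53 lists. With 69 of 10916 genes listed, a 0 among 26 says little about the p53 targets. Of the 26, Pkp4 was the 1 of 7 with at least 2 measurable probe sets that was lower in all pairs on each. Over all 4676 such genes, 108 were.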
